A study of Mus musculus with 2 samples.

Results

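The cells described here were selected by 5 genes that mark mesothelium, the thin cell layer that lines the pleural cavity and covers the surface of the lung. A cell was kept when it held at least 2 unique molecular identifiers (UMIs, each counting 1 captured transcript) summed over Upk3b, Msln, Upk1b, Lrrn4 and Wt1, and no UMI of Ptprc, the leukocyte surface protein CD45, or of Pecam1, an endothelial adhesion protein. This gate admitted 778 of 9944 cells (7.82%, Wilson 95% interval 7.31% to 8.37%). Most of them were admitted by Msln alone, and at equal depth few of those held as many as 3 of 24 other mesothelial genes. The label of mesothelial cells held for a small share of the gate: 36 cells with UMIs of at least 2 different genes among Upk3b, Upk1b, Lrrn4 and Wt1 showed a broad mesothelial profile, and these are called mesothelial-like below.

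The cells came from whole lungs of wild-type C57BL/6J mice on postnatal day 1, dissociated with enzymes and captured as single cells with barcoded beads in droplets (Drop-seq). There were 2 libraries, Batch 1 and Batch 2, and no treated or mutant group. The study's methods name female mice as the source, and the labels do not say which animals gave each batch. Batch 1 held 2389 cells with 4434206 UMIs in all and a median of 1387 UMIs per cell, and Batch 2 held 7555 cells with 23263012 UMIs and a median of 1999. In Batch 2, 25.7% of cells had over 10% of their UMIs from mitochondrial genes, against 1 cell of Batch 1, and none of these was removed. The study's methods do not say whether Batch 1 was filtered at this limit before deposit. No cell barcode occurred in both libraries. The 2 libraries were the only replicates, so every p-value below rests on how differences between cell sets varied between these 2 libraries. Differences between the libraries that all sets share do not enter that spread. Intervals over cells cover counting error only. A lower sum of UMIs can come from fewer cells with a transcript or fewer transcripts per cell.

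Mesothelial cells arise from the mesoderm, as fibroblasts do, yet form a sheet with apical microvilli, keratin filaments and cell junctions like an epithelium. They secrete a lubricating surface coat, rest on a basement membrane and release growth factors and retinoic acid toward the tissue beneath. Upk3b and Upk1b are uroplakins, membrane proteins first known from the bladder lining. Msln is mesothelin, a surface glycoprotein. Lrrn4 is a leucine-rich repeat membrane protein, and Wt1 is a zinc finger transcription factor of the embryonic mesothelium. In the GENCODE annotation of GRCm38, the assembly of mm10, Msln lies on chromosome 17 (25748613 to 25754378), Upk3b on chromosome 5 (136038496 to 136046487), Upk1b on chromosome 16 (38773184 to 38800328), Lrrn4 on chromosome 2 (132868305 to 132880891) and Wt1 on chromosome 2 (105126529 to 105173616), all as protein-coding genes.

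The gate took 120 of 2389 cells in Batch 1 (5.02%, 4.22% to 5.97%) and 658 of 7555 cells in Batch 2 (8.71%, 8.09% to 9.37%). Of the 778 gated cells, 667 (85.7%) held Msln and none of the other 4 genes, 73 of them in Batch 1 and 594 in Batch 2. A further 22 cells (7 and 15) held exactly 1 UMI of the other 4 genes beside Msln. The remaining 89 cells (40 and 49) held at least 2 UMIs of Upk3b, Upk1b, Lrrn4 and Wt1, and are called core cells. Within the core, 51 cells (20 and 31) held Upk1b and none of the other 3 genes, 2 cells held 1 other gene, and 36 cells (19 and 17) were the mesothelial-like cells defined above. Batch 2 thus gained its larger share of gated cells from Msln alone, while mesothelial-like cells made up 0.795% of Batch 1 (0.510% to 1.24%) and 0.225% of Batch 2 (0.141% to 0.360%). All 5 rule genes together were present in 7 cells.

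**Figure D1:**
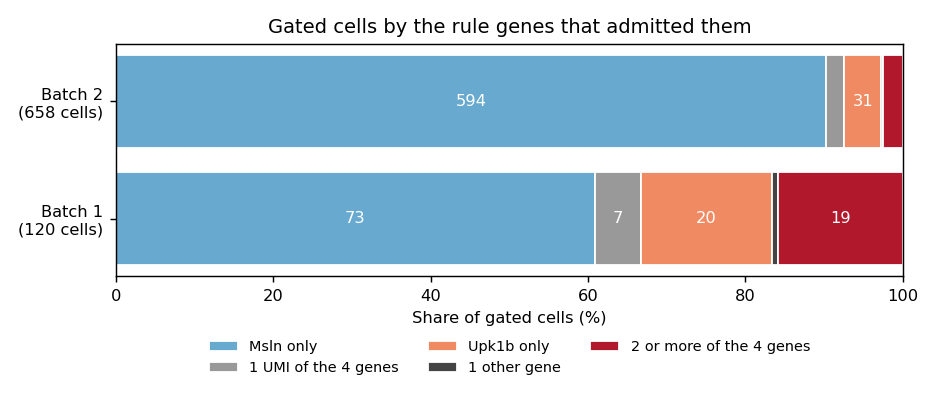
Share of the gated cells of each batch (horizontal axis, percent) by the rule genes that admitted them, with cell numbers in the larger segments. Cells with Msln as their only rule gene fill 60.8% of the bar in Batch 1 and 90.3% in Batch 2, and mesothelial-like cells with 2 or more of the 4 genes fill 15.8% and 2.58%.

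The gate had a threshold close to the bulk of the data. Exactly 2 UMIs admitted 227 cells, in which Msln stood at 487 CPM (the UMIs of a gene scaled by all UMIs of the cell set) in Batch 1 and 382 in Batch 2 and Krt7, a simple epithelial keratin, at 525 and 452. The 591 cells left just outside with 1 UMI had 143 and 207 CPM of Msln and 106 and 330 CPM of Krt7. Among core cells, the 48 with exactly 2 UMIs of the 4 genes had Gpm6a at 55.9 and 33.1 CPM, and the 268 cells with exactly 1 UMI had it at 15.3 CPM and 0. These values were chosen by the rule or lie at its edge and are given without a test.

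The rule genes themselves, summed per cell set and batch, describe how the sets differ. In mesothelial-like cells, Upk3b stood at 1573 CPM in Batch 1 and 1165 in Batch 2, and 83.3% and 72.3% of all Upk3b UMIs of the 2 libraries fell in these cells. Lrrn4 stood at 605 and 591 CPM, with 86.2% and 74.0% of its UMIs in the same cells. Wt1 stood at 387 and 95.8 CPM, from 16 and 6 UMIs. Most Upk3b and Lrrn4 UMIs of both libraries thus lay in these 36 cells, and Wt1 rested on few UMIs. These cells were chosen by the same genes, so the shares are a description. Msln was at 3896 and 3911 CPM in mesothelial-like cells, which is above the 1066 and 800 CPM of Msln-only cells, but because there were so few of the former they held only 24.8% and 6.26% of the Msln UMIs. The epithelial comparison cells outside the gate (Epcam at least 1 UMI) had 336 and 80.4 CPM of Msln, and the fibroblast comparison cells (at least 5 UMIs of Col1a1 and Col1a2) had 6.24 and 18.5. Of the 121 and 422 Msln UMIs of the epithelial set, 113 and 252 lay in 18 and 26 cells. Those cells were outside the gate only because they held Ptprc or Pecam1. In the fibroblast set, 3 and 4 such cells held 4 of 7 and 33 of 54 Msln UMIs. Upk1b was the least selective of the 4 genes. It stood at 968 and 686 CPM in mesothelial-like cells and at 47.2 and 30.9 in fibroblast comparison cells, whose 646 and 1269 cells carried 28.8% and 31.9% of its UMIs.

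Shares of cells with a UMI were compared after thinning each cell to 1000 UMIs. Msln was detected in 83.3% of thinned mesothelial-like cells (30 of 36) and in 9.11% of epithelial comparison cells (97 of 1065), against 0.804% of fibroblast comparison cells and 1.14% of cells with Pecam1 (20 of 1750), an endothelial set that should lack it. Without thinning, the share in epithelial comparison cells was 20.3%. Median depths were 2043 and 2622 UMIs in mesothelial-like cells, 2667 and 3804 in epithelial, 1527 and 2030 in fibroblast and 1657 and 2111 in Pecam1 cells. At equal depth the share in epithelial comparison cells was above the endothelial one. Cells with enough Msln to pass the gate were left out of the epithelial and fibroblast sets unless they held Ptprc or Pecam1. Cells with Pecam1 could not enter the gate, so none was left out of their set for its Msln. The rule thus lowers the share in fibroblasts but not that in Pecam1 cells, and these shares cannot be ranked. Gated cells as a whole were deeper than either mesenchymal or endothelial cells, with medians of 2123.5 and 3533 UMIs.

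A list of 24 measured mesothelial genes outside the rule was counted per cell to see how far the label held. Among thinned mesothelial-like cells, 34 of 36 (94.4%, 81.9% to 98.5%) held at least 3 of the 24 genes, with a median of 6 and a range of 0 to 10. This was true of 0 of 50 thinned Upk1b-only cells (0% to 7.13%) and of 4 of 650 Msln-only cells (0.615%). Without thinning, 71 of 667 Msln-only cells (10.6%) and 1 of 51 Upk1b-only cells (1.96%) did so. It was also true of 8 of 1742 fibroblast (0.459%) and 3 of 1065 epithelial comparison cells (0.282%). One mesothelial-like cell of Batch 2, with 2599 UMIs, carried none of the 24 genes at full depth. It was admitted by 1 UMI each of Upk1b and Lrrn4 and held 1 UMI each of the fibroblast genes Tcf21 and Mfap4. Selection by 2 of 4 rule genes thus picked cells that shared many other mesothelial genes, with few exceptions, and at equal depth few cells selected by Msln or by Upk1b alone held 3 of them. Both the list and the cell sets were chosen with earlier results of these data known, so these counts are a description.

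**Figure D2:**
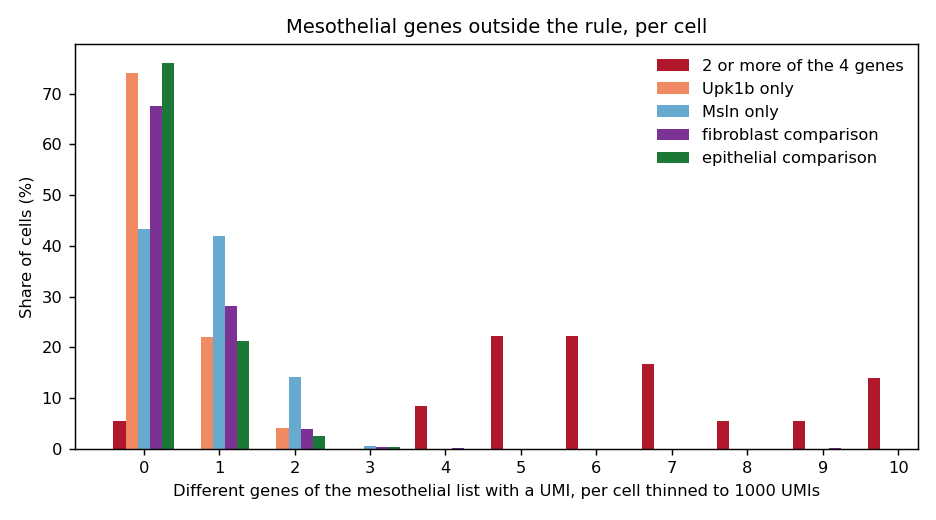
Share of cells (vertical axis, percent) by the number of different mesothelial genes outside the rule with at least 1 UMI, per cell thinned to 1000 UMIs, both batches together. Mesothelial-like cells peak around their median of 6 genes, while the other 4 sets lie almost entirely below 3.

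Transcripts were then compared between cell sets after summing UMIs per set and batch, with edgeR and the batch as a block. Beginning with the whole gate, 2555 of 12286 genes differed from fibroblast comparison cells at an adjusted p under 0.05 (20.8%), 1529 higher (12.4%) and 1026 lower (8.35%). Genes of lung epithelium led the higher side. All 10 markers of alveolar type 1 (AT1) cells, the flat cells of gas exchange, and all 8 of alveolar type 2 (AT2) cells, the surfactant producers, were higher, and 17 of 22 interstitial matrix genes were lower. The fibroblast set was chosen by UMIs of Col1a1 and Col1a2, so high matrix genes there can follow from the rule. Ager, the AT1 receptor RAGE, stood at 3887 CPM in Batch 1 and 2119 in Batch 2 of gated cells, against 44.5 and 49.4 in fibroblasts (log2 fold change 5.94 ± 0.36 SE, adjusted p = 5e-05). Sftpc, the surfactant protein of AT2 cells, stood at 30004 and 25906 CPM against 1629 and 1305 (4.34 ± 0.22, adjusted p = 3.3e-05). Of the mesothelial list, 7 of 17 tested genes were higher and 0 were lower, with a median log2 fold change of 1.10 against -0.00 over all genes.

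Against epithelial comparison cells, 0 of 12286 genes differed in edgeR (0%), with 710 at an unadjusted p under 0.05, and DESeq2 called 54. Gpm6a stood at 105 and 8.92 CPM in the gate and at 0 and 0.572 in epithelial cells. Msln-only cells held 246797 of the 344189 UMIs of the gate in Batch 1 and 3632419 of 4149491 in Batch 2.

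Msln-only cells carried epithelial genes at high levels. The study's own signature list for AT1 cells also holds Msln. Epcam, the epithelial adhesion protein, stood at 280 and 310 CPM, against 494 and 421 in the comparison cells selected for it. Of 9439 genes, 2 differed between Msln-only and epithelial comparison cells (0.0212%), and 580 had an unadjusted p under 0.05, while DESeq2 called 29. Rtkn2, among the AT1 markers, stood at 762 and 414 CPM in Msln-only cells and at 225 and 120 in epithelial cells (1.72 ± 0.21, adjusted p = 0.021). Cryab, a small heat shock protein, stood at 754 and 301 CPM against 208 and 92.0 (1.73 ± 0.22, adjusted p = 0.021). In both genes the value of each Msln-only batch lay above the epithelial value of the same batch. Ager stood at 5247 and 2336 CPM against 2189 and 811, and the AT1 regulator Hopx at 1248 and 689 against 552 and 295, but neither passed the test (adjusted p = 0.27 and 0.21). Sftpc stood at 41536 and 28432 CPM against 69605 and 51364 (adjusted p = 0.49). The 10 AT1 genes summed to 16978 and 11012 CPM against 7258 and 4133, and the 8 AT2 genes to 52339 and 37508 against 86643 and 66390. Of the lists compared, Rtkn2 was the only gene called, and 0 of 18 mesothelial genes differed (median -0.36 against -0.04 over all genes). Gpm6a was at 0 in the 667 cells.

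Core cells were set against Msln-only cells next, and 1178 of 9439 genes differed (12.5%), 607 higher (6.43%) and 571 lower (6.05%). With the size factors of DESeq2 the split was 663 higher and 411 lower, so that 61.7% of its calls were higher, against 51.5%. Of the mesothelial list, 17 of 18 genes were higher and 0 lower, and 18 of 21 interstitial matrix genes were higher. All 10 AT1 and all 8 AT2 markers were lower. For the mesothelial-like cells alone, 923 of 9913 genes differed from Msln-only cells (9.31%), 389 higher (3.92%) and 534 lower (5.39%), and 18 of 19 mesothelial genes were higher. C3, the central complement protein, stood at 2008 and 1580 CPM in mesothelial-like cells, 0 and 20.4 in Upk1b-only cells and 20.3 and 7.71 in Msln-only cells (core against Msln-only 6.08 ± 0.41, adjusted p = 1.9e-06). Cldn3, an epithelial claudin, was lower in the core (-3.42 ± 0.40, adjusted p = 9.7e-05), with 24.2 and 144 CPM in mesothelial-like cells against 466 and 783, all of the 144 CPM coming from 1 cell.

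The 51 Upk1b-only cells differed from the 36 mesothelial-like cells in ways that mixed the profile of the core. This split was made after the values were seen and is described without a test. Tcf21, a transcription factor of lung fibroblasts, stood at 2802 and 1853 CPM in Upk1b-only cells and at 0 and 16 in mesothelial-like cells, against 1857 and 1087 in fibroblast comparison cells. Mfap4, a microfibril protein, stood at 5335 and 2005 CPM, 0 and 63.8, and 2973 and 1042 in the same order. Gpm6a, Cpe and Aldh1a2 were at 0 in both batches of Upk1b-only cells. Decorin (Dcn) also stood at 0 there, although 50 of the 51 cells carried UMIs of Col1a1, Col1a2 or Col3a1. Upk1b-only cells thus carried the fibroblast genes Tcf21 and Mfap4 and had 0 UMIs of these mesothelial genes, and fold changes of the whole core average both sets. Airway genes also stood apart in these cells: the 6 of the list summed to 0 CPM in Batch 1 and 49423 in Batch 2 of Upk1b-only cells, against 58.8 and 423 in fibroblast and 6445 and 8872 in epithelial comparison cells. Their part in the values of Upk1b-only cells and of the core was not tested. Each comparison below is given for the core and then for the mesothelial-like cells alone.

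**Figure D3:**
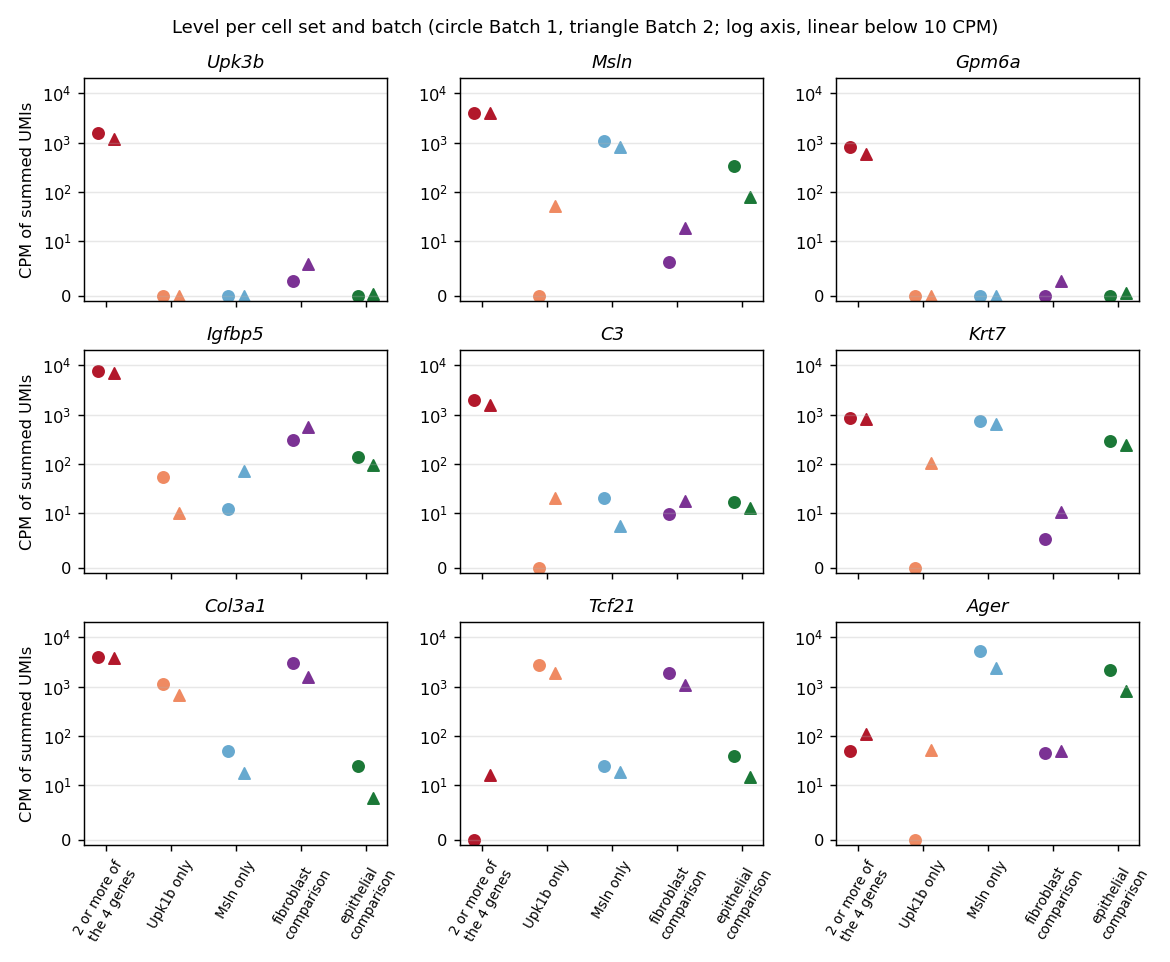
Summed UMIs in CPM (vertical axis, logarithmic above 10 CPM) of 9 genes in 5 cell sets, with a circle for Batch 1 and a triangle for Batch 2. Gpm6a, Igfbp5 and C3 are high in mesothelial-like cells in both batches, Tcf21 is high in Upk1b-only and fibroblast cells, and Ager is high in Msln-only and epithelial cells.

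Against fibroblast comparison cells, 199 of 9439 genes differed in the core (2.11%), 173 higher (1.83%) and 26 lower (0.275%). In the mesothelial-like cells 698 of 9913 differed (7.04%), 334 higher (3.37%) and 364 lower (3.67%). Of the 173 genes higher in the core, 162 (93.6%) were among the 334 of the mesothelial-like cells, of which they made up 48.5%. Of the 26 lower genes, 21 (80.8%) were among the 364, 5.77% of them. Against epithelial comparison cells, 1081 of 9439 genes differed in the core (11.5%), 572 higher (6.06%) and 509 lower (5.39%). DESeq2 called 635 higher and 352 lower there, so that 64.3% of its calls were higher, against 52.9%. In the mesothelial-like cells 942 of 9913 differed (9.5%), 384 higher (3.87%) and 558 lower (5.63%). All comparisons use the same fibroblast and epithelial sums. Counts over gene lists below are to be read beside these shares of all genes.

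Cells kept out of the gate for Ptprc or Pecam1 stayed in these sums. They made up 3 and 4 of the fibroblast and 18 and 26 of the epithelial comparison cells. The epithelial sums held 360421 and 5249001 UMIs with them, and 248993 and 4638710 without them. Among the fibroblasts of Batch 2, 2 of these cells held 16 and 11 of the 24 mesothelial genes. The 4 cells of Batch 2 held 15 of 17 Upk3b UMIs, all 7 Lrrn4 UMIs and 7 of 8 Gpm6a UMIs of its fibroblast set. Without these cells, 691 genes differed between mesothelial-like cells and fibroblasts and 1006 between them and epithelium, and none of the named gene comparisons recomputed under the alternatives changed its side of the threshold from that with them. In Batch 2 fibroblasts, Gpm6a then stood at 0.345 CPM and C3 at 3.11, against 2.74 and 17.5 with them. The comparisons of the whole gate and of Msln-only cells with epithelium were not repeated without these cells.

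Mesothelial genes outside the rule formed the clearest group. In the core, 13 of 18 tested genes were higher than in fibroblasts and 0 lower (median log2 fold change 4.78, against -0.13 over all genes). In mesothelial-like cells, 17 of 19 were higher than in fibroblasts (median 5.08 against -0.47) and 18 of 19 were higher than in epithelial cells (median 6.04 against -0.46), with 0 lower in either. Leaving out the 2 mesothelial-like cells with Epcam kept both counts at 17 and 18. The list was chosen with earlier results of these data known.

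Gpm6a, a membrane glycoprotein of the proteolipid family, stood at 823 CPM in Batch 1 and 591 in Batch 2 of mesothelial-like cells, against 0 and 2.74 in fibroblasts. It was detected in 16 of 19 and 12 of 17 mesothelial-like cells. Both batches lay far above every comparison set, and the fold change was 8.20 ± 0.66 on the log2 scale (adjusted p = 2.2e-07), or 7.23 ± 0.69 in the core (adjusted p = 0.00023). Cpe, carboxypeptidase E, which trims peptide hormones, stood at 968 and 1564 CPM against 5.35 and 8.92 in fibroblasts and 13.9 and 1.14 in epithelium. The difference from fibroblasts was 7.09 ± 0.53 (adjusted p = 7.9e-08). C3, with the levels given above, stood at 9.80 and 17.5 CPM in fibroblasts and at 16.6 and 12.6 in epithelium, and was higher than both (6.57 ± 0.36, adjusted p = 1.9e-09, and 6.51 ± 0.38, adjusted p = 1.3e-09). Cldn15, a claudin that forms ion pores between cells, stood at 194 and 255 CPM against 0 and 1.72 in fibroblasts (7.41 ± 0.91, adjusted p = 2.2e-05). Efemp1, the matrix protein fibulin-3, stood at 315 and 208 CPM against 3.56 and 1.03 (6.64 ± 0.69, adjusted p = 2.9e-06). Rarres2, the chemoattractant chemerin, was at 3243 and 1580 CPM against 303 and 181 (2.90 ± 0.40, adjusted p = 6.6e-05), with fibroblasts also carrying it, and at 22.2 and 2.67 in epithelium. Sfrp2, a secreted modulator of WNT signals outside the list, stood at 1113 and 591 CPM against 9.80 and 13.4 in fibroblasts (5.69 ± 0.48, adjusted p = 2.2e-07). For these 7 genes the lower mesothelial-like batch lay above the higher fibroblast batch. The study reports Sfrp2 as enriched in a matrix fibroblast subtype, which the pooled fibroblast set here does not separate.

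The list was not fully represented. Calb2, the calretinin used as a mesothelial stain in human tissue, and Upk3bl had 0 UMIs in the 36 cells. With Muc16, Bnc1 and Sbspon they made up the 5 of 24 genes that did not pass the filter on low counts. Muc16, a mucin of the pleural surface, stood at 48.4 and 112 CPM in 2 and 7 cells and had 0 UMIs in fibroblasts. Bnc1, a zinc finger factor, stood at 48.4 and 47.9 CPM, in 2 cells of each batch. Nkain4 stood at 629 and 271 CPM against 76.6 and 66.2 in fibroblasts (2.17 ± 0.44, adjusted p = 0.0035) and did not pass in the core (adjusted p = 0.22).

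**Figure D4:**
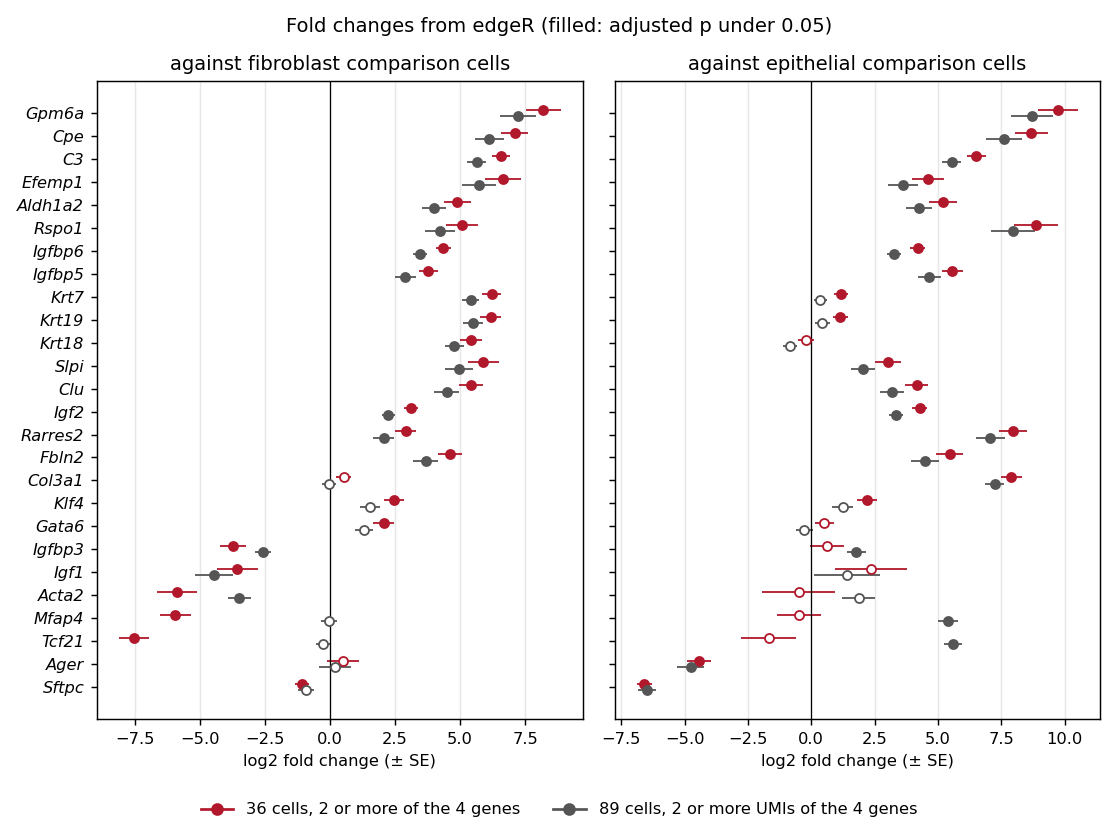
Log2 fold changes with standard errors (horizontal axis) of core cells (grey) and mesothelial-like cells (red) against fibroblast and epithelial comparison cells, with filled points for an adjusted p under 0.05. Both sets agree for Gpm6a, Cpe and C3, while Tcf21 and Mfap4 are near 0 against fibroblasts in the core and at -7.53 and -5.96 in mesothelial-like cells, where they rest on 1 and 4 UMIs.

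Keratins and adhesion proteins showed the epithelial side of these cells. Against fibroblasts, 6 of 14 genes of this list were higher in the core, and in mesothelial-like cells 7 of 14 were higher (Krt7, Krt8, Krt18, Krt19, the cadherin Cdh3, the desmosomal Dsp, and Perp) and 1 was lower. The lower gene was Cdh11, a cadherin of mesenchymal cells, at 145 and 176 CPM against 674 and 330 (-1.85 ± 0.42, adjusted p = 0.0099). Krt7 stood at 847 and 798 CPM in mesothelial-like cells and at 5.35 and 10.6 in fibroblasts (6.21 ± 0.35, adjusted p = 1.9e-09). Epithelial cells had 286 and 237 CPM of Krt7, below both mesothelial-like batches (1.17 ± 0.28, adjusted p = 0.010), and for Krt19 the levels were 436 and 814 CPM against 216 and 195 (1.15 ± 0.31, adjusted p = 0.022). In the core neither keratin passed against epithelium (adjusted p = 0.45 and 0.40). Msln-only cells, which carried epithelial genes, were in the gate and so not in this epithelial set. After thinning, a UMI of Krt7, Krt8, Krt18 or Krt19 was found in 85.2% of Msln-only cells. The share was 77.8% in mesothelial-like and 53.0% in epithelial comparison cells. Krt18 stood at 290 and 335 CPM against 205 and 305 in epithelium (-0.21 ± 0.32, adjusted p = 0.77), so that the sign depended on the scaling between sums and no difference passed the test. E-cadherin (Cdh1), the main adhesion protein of epithelia, stood at 0 and 47.9 CPM against 139 and 162 and was lower (adjusted p = 0.0081). With 3 UMIs in the mesothelial-like cells, its ratio to epithelium over both batches was 0.179 (exact 95% interval 0.0369 to 0.526, counting error only).

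Tight junction genes differed mostly upward from fibroblasts and downward from epithelium. In mesothelial-like cells 6 of 18 were higher and 1 lower than in fibroblasts, beside 3.37% and 3.67% of all genes tested. Against epithelium 1 was higher and 6 lower, beside 3.87% and 5.63% of all genes, so the 1 higher gene lies near the share of all genes. Cldn15 was the gene higher than in both. Ezr, ezrin, which ties microvilli to the actin cytoskeleton, stood at 702 and 638 CPM against 31.2 and 47.0 in fibroblasts (3.76 ± 0.30, adjusted p = 1.7e-07). Cldn3 at 24.2 and 144 CPM was called higher than in fibroblasts (2.38 ± 0.58, adjusted p = 0.016), but without the 2 cells with Epcam it stood at 25.5 CPM and 0, and the count of higher genes was 4. Against epithelium Cldn3 was lower with and without them (adjusted p = 2.3e-05 and 7.8e-07).

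Matrix genes showed the mesenchymal side. Against epithelium, 14 of 22 interstitial matrix genes were higher in mesothelial-like cells and 0 lower. Col3a1, collagen III, stood at 3993 and 3767 CPM in mesothelial-like cells, 2983 and 1594 in fibroblasts and 25.0 and 7.62 in epithelium, and the difference was 7.88 ± 0.41 from epithelium (adjusted p = 3.8e-10) and 0.53 ± 0.29 from fibroblasts (adjusted p = 0.29). Against fibroblasts 4 genes were higher and 4 lower of the 22. The higher genes were Col14a1, Dcn, Fbln2 and Sparc. Fbln2, fibulin-2, stood at 968 and 782 CPM against 23.2 and 30.2 (4.60 ± 0.47, adjusted p = 2.3e-06), and Dcn, a collagen-binding proteoglycan, at 1621 and 527 against 282 and 82.0 (2.23 ± 0.30, adjusted p = 5.4e-05). The lower genes were Fn1, Eln, Postn and Mfap4. Fibronectin (Fn1) had 0 UMIs in the 36 cells, against 851 and 526 CPM in fibroblasts, which makes it at least 11.7-fold and 11-fold lower in Batch 1 and Batch 2 when a floor of 3 UMIs per batch is used. Periostin (Postn) was also at 0, at least 4.07-fold and 7.78-fold lower by the same floor. Elastin (Eln) stood at 169 and 128 CPM against 380 and 606 (-2.09 ± 0.38, adjusted p = 0.0014).

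A single cell could hold both sides. After thinning, a UMI of Krt7, Krt8, Krt18 or Krt19 together with one of Col1a1, Col1a2 or Col3a1 was found in 15 of 19 mesothelial-like cells of Batch 1 (78.9%, 56.7% to 91.5%) and 13 of 17 of Batch 2 (76.5%, 52.7% to 90.4%). The share was 0 of 50 in Upk1b-only cells (0% to 7.13%), 5.23% in Msln-only, 2.81% in fibroblast and 1.50% in epithelial comparison cells. In endothelial and immune sets, it was 0.457% (Pecam1 cells) and 0.259% (Ptprc cells). Col1a1 and Col1a2 chose the fibroblast comparison cells, so the collagen share there follows from the rule. No doublet caller was run, and what part 2 cells in 1 droplet had in these shares was not tested. Without thinning the share was 94.4% in mesothelial-like cells.

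**Figure D5:**
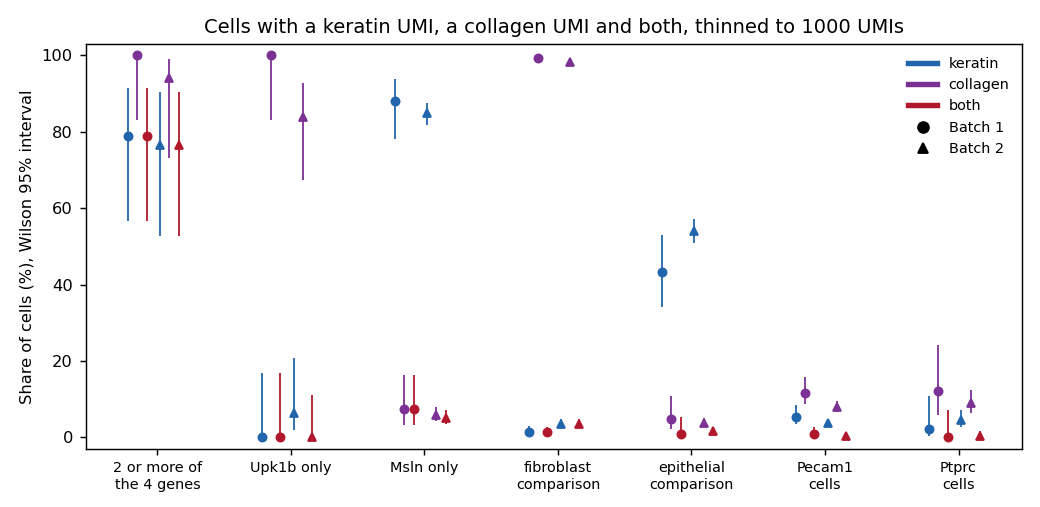
Share of cells thinned to 1000 UMIs (vertical axis, percent, with Wilson 95% intervals) with a keratin UMI, a collagen UMI and both, for 7 cell sets, with circles for Batch 1 and triangles for Batch 2. Mesothelial-like cells stand at 78.9% and 76.5% for both together, and the other sets lie below 8%.

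Basement membrane genes followed. Of 19 tested, 6 were higher in mesothelial-like cells than in fibroblasts, among them the collagen IV chains Col4a3 and Col4a4 and the laminin chain Lama5, and 1, Lama4, was lower. Lama5, a laminin chain of epithelial basement membranes, stood at 387 and 335 CPM against 32.1 and 18.2 in fibroblasts (3.56 ± 0.40, adjusted p = 7.5e-06) and 86.0 and 90.9 in epithelium (1.47 ± 0.37, adjusted p = 0.014). Genes of the surface coat and its carriers were higher in 8 of 15 and lower in 1, the proteoglycan Vcan. Podxl, the sialomucin podocalyxin, stood at 290 and 239 CPM against 7.13 and 12.7 in fibroblasts (4.20 ± 0.63, adjusted p = 0.00017), and was also higher than in epithelium (2.54 ± 0.60, adjusted p = 0.0089). Slpi, a protease inhibitor of mucosal fluids, stood at 242 and 287 CPM against 4.45 and 3.09 in fibroblasts (5.90 ± 0.59, adjusted p = 1.9e-06). Has1, a hyaluronan synthase, was called higher than in fibroblasts (adjusted p = 0.0040) from 2 and 3 cells. Leaving out the 2 cells with Epcam kept 7 of the 8, without Sdc1.

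Secreted signals were mixed. Of the insulin-like growth factor genes, 3 of 10 were higher (Igf2, Igfbp5 and Igfbp6) and 4 lower (Igf1, Igf2r, Igfbp3 and Igfbp4) than in fibroblasts, and 5 of 10 were higher than in epithelium. Igfbp5, a binding protein of these factors, stood at 7647 and 7039 CPM against 302 and 572 in fibroblasts (3.78 ± 0.36, adjusted p = 9.6e-07). Igfbp6, which prefers Igf2, stood at 1742 and 1548 CPM against 62.4 and 63.5 (4.36 ± 0.28, adjusted p = 1.2e-08). Igf2 itself, a fetal growth factor, stood at 1476 and 2602 CPM against 118 and 267 (3.11 ± 0.26, adjusted p = 2.2e-07). Igf1 went the other way, at 24.2 and 16 CPM against 189 and 172 (adjusted p = 0.0071), a ratio of 0.109 (0.0131 to 0.394) from 2 UMIs. So did Igfbp3, at 24.2 and 63.8 against 113 and 892 (-3.74 ± 0.50, adjusted p = 5.3e-05). These 5 directions were the same in the core, where each passed. The study reports Igf1, Igf2, Igfbp5 and Igfbp6 as enriched in a matrix fibroblast subtype. The fibroblast set here pools the subtypes, so these levels were not compared with that subtype alone.

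Aldh1a2, the retinaldehyde dehydrogenase that makes retinoic acid, stood at 605 and 367 CPM against 19.6 and 7.89 in fibroblasts and 22.2 and 4.38 in epithelium. It was higher than in both (4.89 ± 0.51, adjusted p = 3.2e-06, and 5.20 ± 0.55, adjusted p = 2.2e-06), and also in the core (3.99 ± 0.46, adjusted p = 0.00053). With Aldh1a1 it made up the 2 genes of 9 in the retinoic acid list that were higher than in fibroblasts, and 0 were lower. Of 25 growth factor and receptor genes, 4 were higher (Fgf1, Fgf9, Rspo1 and Tgfb3) and 5 lower (Fgf7, Fgf10, Fgfr1, Pdgfra and Vegfa). Rspo1, a secreted amplifier of WNT signals, stood at 411 and 319 CPM against 11.6 and 6.18 (5.08 ± 0.61, adjusted p = 1.7e-05). Fgf9, a pleural growth factor of the embryonic lung, stood at 290 and 79.8 CPM against 8.91 and 5.83 (4.03 ± 0.77, adjusted p = 0.0022), from 6 and 3 cells, and did not pass in the core (adjusted p = 0.068).

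Complement and defence genes were higher in 7 of 14 (C3, C1s, C1ra, C2, Clu, Slpi and Il33) and lower in 1 than in fibroblasts, and higher in 8 of 14 than in epithelium. The lower gene was the chemokine Cxcl12, with 0 UMIs in the 36 cells against 113 and 138 CPM in fibroblasts, at least 1.56-fold and 2.87-fold lower by the floor of 3 UMIs. Clu, the chaperone clusterin, stood at 774 and 1293 CPM against 6.24 and 30.5 (5.42 ± 0.46, adjusted p = 2.2e-07). C1ra, a protease of the first complement component, stood at 460 and 559 CPM against 75.7 and 42.2 in fibroblasts (2.89 ± 0.46, adjusted p = 0.00036).

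Of the transcription factors other than Wt1, 0 of 22 passed against fibroblasts in the core by edgeR. In mesothelial-like cells 2 of 25 were higher, Gata6 and Klf4, and 2 lower, Tcf21 and Nr2f2, beside the 7.04% of all genes tested. Klf4, a factor of barrier epithelia, stood at 508 and 1277 CPM against 81.1 and 185 (2.46 ± 0.39, adjusted p = 0.00031). Gata6, a factor of mesoderm and endoderm, stood at 242 and 192 CPM against 39.2 and 41.2 (2.07 ± 0.40, adjusted p = 0.0026), with 108 and 104 CPM in epithelium (0.52 ± 0.38, adjusted p = 0.44). Tcf21, with 1 UMI in all 36 cells, was lower (adjusted p = 1.2e-07), at a ratio of 0.00739 to fibroblasts (0.000187 to 0.0412, the exact interval). Nr2f2, a nuclear receptor of mesenchyme, stood at 145 and 144 CPM against 666 and 505 (-2.33 ± 0.38, adjusted p = 0.00049). In the core the Tcf21 difference was -0.28 ± 0.27 (adjusted p = 0.75), where the Upk1b-only cells entered the sum.

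Contractile genes were lower in 6 of 11 and higher in 0. Acta2, smooth muscle actin, stood at 0 and 16 CPM against 411 and 485 (adjusted p = 4.3e-05), a ratio of 0.0207 (0.000524 to 0.115) from 1 UMI. The fibroblast set was chosen by collagen UMIs, and myofibroblasts and smooth muscle cells were not taken out of it. Its mural and muscle markers, Acta2 among them, summed to 1086 and 1387 CPM. Immediate early genes, which respond within minutes to stress such as tissue dissociation, were lower in 6 of 15 (Fos, Jun, Junb, Egr1, Ier2 and Zfp36) and higher in 1, Klf2. Fos stood at 121 and 686 CPM against 170 and 2289 in fibroblasts (-1.79 ± 0.33, adjusted p = 0.0014), so that both sets were higher in Batch 2 than in Batch 1. Hox genes (0 of 7) and cell cycle genes (0 of 8) had none called in either direction by edgeR. The batches went opposite ways for the cell cycle, whose 16 genes summed to 1912 and 192 CPM in mesothelial-like cells against 163 and 335 in fibroblasts. In Batch 1 the sum held 39 UMIs of the histone Hist1h2ap in 4 cells and 14 of the topoisomerase Top2a in 3 cells, and in Batch 2 it held 0 and 3.

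Markers of other cell types were read in the same sums. AT1 genes were lower than in epithelium in 9 of 10 and AT2 genes in 8 of 8. Ager stood at 48.4 and 112 CPM, and Sftpc at 895 and 846, which is below the 1629 and 1305 of fibroblasts (-1.08 ± 0.25, adjusted p = 0.012). The 5 immune markers were all at 0, and the 5 vascular endothelial markers summed to 72.6 and 144 CPM with Emcn, Plvap and Cldn5 at 0. The gate left out cells with Ptprc or Pecam1, so low levels of both lists can follow from the rule. In fibroblasts the immune list summed to 6.24 and 20.6 CPM. A floor of 3 UMIs in the mesothelial-like sums is 72.6 and 47.9 CPM, so the 0 cannot be told from the fibroblast level. The globins Hba-a1, Hba-a2, Hbb-bs and Hbb-bt, 4 of 5 tested erythroid genes, were lower than in fibroblasts. Airway genes were an exception that rested on 1 cell. Scgb1a1, the club cell secretory protein, stood at 0 CPM in Batch 1 and 21597 in Batch 2, where 98.4% of the UMIs were in 1 cell of 10102 UMIs that also held Epcam. Scgb1a1, Scgb3a2 and Cyp2f2 were called higher than in fibroblasts with that cell, and 0 of 5 airway genes were called without the cells with Epcam (Scgb1a1 at 0 and 419 CPM, against 45.4 and 359 in fibroblasts). With those 2 cells out, the counts of differing genes were 763 against fibroblasts (7.74%; 313 higher, 3.17%, and 450 lower, 4.56%) and 1064 against epithelium (10.8%). Of the latter, 404 were higher (4.1%) and 660 lower (6.69%), and against Msln-only cells 394 were higher (4%) and 669 lower (6.78%). In Batch 2, 6 of 17 mesothelial-like cells (35.3%) exceeded 10% mitochondrial UMIs, against 24.0% of fibroblast and 29.1% of epithelial comparison cells, and in the core 163 genes differed from fibroblasts without all such cells, against 199 with them.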

How the data were processed

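UMI counts per gene and cell, deposited by the authors for 2 Drop-seq libraries of mouse lung, were used without change. Per the labels and the study's methods, the authors aligned reads with Bowtie2 (2.2.7, also in the submitters' processing notes) to mm10, and Drop-seq tools gave the distinct UMIs of each gene in each cell. The deposited counts were not normalized and held no mitochondrial filter. All 9944 cells were kept; the study's own filters on cells and genes were not applied. The gate, the cell sets and the gene lists were chosen with earlier results of these data known.

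Counts were summed per cell set and batch and tested with edgeR 4.0.16 in R 4.3.3 (TMM, filterByExpr, quasi-likelihood F test, batch as replicate block, Benjamini-Hochberg adjustment over all genes tested, threshold 0.05). The block is by design, since the sums of a batch come from the same library; deviations of same-batch sums correlated at 0.261 to 0.355 in the fit of the gate and 0.172 to 0.388 in the fit of the core. The rule genes and Ptprc, Pecam1, Col1a1, Col1a2 and Epcam were not tested. The 28 cells (4 and 24) that met both comparison rules were left out. Pecam1 and Ptprc cells had 1 marker, no Epcam and under 5 collagen UMIs. Thinning to 1000 UMIs used a fixed seed and left out shallower cells. Standard errors (SE) were worked back from the F test, as the absolute log2 fold change over the square root of F. Levels are CPM of the sums, with no correction for length. Intervals are Wilson 95% intervals.

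Genes named were those of the rule and lists, and those with the largest fold changes past the threshold that reached 100 CPM and moved one way in both batches. Simulated counts served to test the fit. Alternatives were DESeq2 1.42.0, no block, no gene filter, a fit of the compared sets alone, thinning, a limit of 10% mitochondrial UMIs, other gates, leaving out Epcam cells, and leaving out comparison cells with at least 2 UMIs of the rule genes. Python 3.11.15 with numpy 2.4.6, scipy 1.17.1 and pandas 2.3.3 was used. No doublet caller was run, and the study's own cell labels and single-batch tests across genes, which have no residual degrees of freedom, were not used. No sequences are shown, since the members are cells.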

Additional observations from a re-analysis of the deposited data

How the results depend on the processing

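The gate's share of all cells, 7.82%, moved to 13.8% with at least 1 UMI, 5.54% with at least 3, 0.895% without Msln and 8.55% without the limits on Ptprc and Pecam1, and ranged from 5.02% to 8.71% with either batch left out. Without thinning, shares of cells with a UMI moved from 44.4% to 77.8% for Gpm6a and 41.7% to 75.0% for Krt7 in mesothelial-like cells, and from 9.11% to 20.3% for Msln in epithelial cells. Without the replicate block, counts of differing genes were 1334 (gate against fibroblast), 674 (core against Msln-only), 81 (core against fibroblast), 595 (core against epithelial) and 0 (Msln-only against epithelial). In a fit of the 2 sets compared they were 218 (gate against epithelial), 585, 519 and 348 (core against Msln-only, core against epithelial, Msln-only against epithelial). With no gene filter they were 269, 373 and 136 (gate against epithelial, core against fibroblast, Msln-only against epithelial), and with thinned cells 288 and 251 (gate and Msln-only against epithelial). DESeq2 gave 54 and 29 for these 2 comparisons, and keeping cells of both kinds gave 15 for the second. With at least 2 of the 5 genes the gate gave 1178 and 73 against fibroblast and epithelial cells, and without Epcam cells 1523 and 534. Core against fibroblast gave 698 with at least 2 of the 4 genes and 763 with Epcam cells also left out. It gave 691 when comparison cells with at least 2 UMIs of the 5 genes were left out instead. These last 2 alternatives were chosen after seeing the data. The low counts against epithelium therefore depend on these settings, and the cause was not tested. Of 1082 values of 86 named gene comparisons, 915 were unchanged, 97 newly passed the threshold, 26 lost it, 36 without a test moved and 8 changed sign. Unchanged meant the same direction and side of the threshold. Values with 1 batch left out had no test. They counted as unchanged within 1 standard deviation of the 2 batch differences from the main value. A main value midway between the batches always meets that rule. It gave 79 of the 915 without Batch 1 and 57 without Batch 2. The sign changes were Col3a1 (0.023 in DESeq2, 0.53 and 0.58 in mesothelial-like cells with and without Epcam cells, 0.53 again with the comparison cells reduced, 0.038 in the core without Epcam cells) and Mfap4 (0.030 in DESeq2 and 0.031 without Epcam cells), both core against fibroblast, and Krt7, core against epithelial (-0.46 when thinned); none was called in either setting. Depth limits low genes: the mesothelial-like sums hold 41326 and 62647 UMIs, so 1 UMI is 24.2 and 16 CPM.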

Other observations

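The 72 cells that reached 2 UMIs of the 5 rule genes but held Ptprc or Pecam1 (31 in Batch 1 and 41 in Batch 2) had median depths of 4743 and 7480 UMIs, above the 2123.5 and 3533 of gated cells. The 22 gated cells with Msln and exactly 1 UMI of the other 4 genes had medians of 2446 and 7034 UMIs. Thinned to 1000 UMIs, 2 of 6 such cells in Batch 1 and 0 of 15 in Batch 2 held at least 3 mesothelial genes outside the rule. Among Upk1b-only cells of Batch 2, 62.7% of the Scgb1a1 UMIs were in 1 cell of 12468 UMIs. The gene was present in 20 of the 31 cells, and without that cell Scgb1a1 stood at 12674 CPM and Scgb3a2 at 4524, against 359 and 57.3 in fibroblast comparison cells of the same batch.

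Several genes outside the fixed lists were among the 15 with the largest differences from both fibroblast and epithelial comparison cells. Slurp1, a secreted Ly6-family peptide of keratinocytes, stood at 218 and 128 CPM in mesothelial-like cells and at 0 and 0.343 in fibroblasts, from 7 and 5 cells (edgeR adjusted p = 3.2e-05, with 1 UMI in all fibroblasts). Pnoc, the precursor of the neuropeptide nociceptin, stood at 72.6 and 399 CPM against 1.78 and 3.43 (6.14 ± 0.93, adjusted p = 0.00022). Sbsn, suprabasin of stratified epithelia, stood at 557 and 830 CPM against 10.7 and 11.3 in fibroblasts and 5.55 and 12.2 in epithelium (5.67 ± 0.45, adjusted p = 1.2e-07 against fibroblasts), from 12 and 14 of the 36 cells. All 3 were above every comparison set in both batches.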
